A study of Homo sapiens with 4 samples.

Results

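The regions described here are CTCF-bound regions of K562 cells that were called under both anthracyclines but stood higher in the order of peaks after daunorubicin than after aclarubicin. K562 is an established human erythroleukaemia line, and CTCF occupancy was measured by chromatin immunoprecipitation and sequencing (ChIP-seq). The design had 2 groups of 2 biological replicates, one exposed to aclarubicin and the other to daunorubicin, each at 10 µM and for 4 hours. No untreated library was analysed here, so higher and lower always mean one drug against the other. The 4 peak lists, joined wherever peaks shared at least 1 bp on chromosomes 1 to 22 and X, gave 13959 regions, of which 4121 held a peak in all 4 libraries. In each library these 4121 shared regions were ranked by the authors' fold over background and given a percentile from 0 to 100. The members were chosen by that percentile: the mean of the daunorubicin libraries had to exceed the mean of the aclarubicin libraries by at least 20 points. This left 825 members, 20.02% of the shared regions, beside 805 regions (19.5%) that met the same limit in the other direction and 2491 that moved by less than 20 points.

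CTCF is a zinc-finger protein that binds a long DNA motif and, together with cohesin, sets the anchors of chromatin loops and the borders of topological domains. Its sites range from strong ones bound in most cells to weak ones whose occupancy changes with the chromatin around them. Anthracyclines slip between DNA base pairs. Daunorubicin also traps topoisomerase II on cut DNA, whereas aclarubicin causes little DNA breakage. A percentile is a relative measure: a region can gain rank because its own signal rose or because the signal of other regions fell.

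The lists held 10633 and 10711 peaks under aclarubicin and 5886 and 6638 under daunorubicin. They carry no read totals. A relative depth can be recovered from the fold and p-values of a list. Taking the first aclarubicin library as 1, it was 1.04 in the second, and 0.997 and 0.814 in the daunorubicin libraries. Positions below are those of the files. The submitters' processing notes name GRCh37 (hg19) as the build. Genes, motifs and sequences at the members were not analysed here, since no genome or annotation of that build was at hand.

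The members were weak to middling sites under aclarubicin and above the middle under daunorubicin. Their median percentile was 25.5 and 25.8 in aclarubicin replicates 1 and 2 and 67.9 and 66.9 in daunorubicin replicates 1 and 2. These are the values that chose the members, so they are a description and carry no test. By mean aclarubicin percentile, 387 of the 825 members (46.9%) lay below 25, against 23.9% of all shared regions, 310 (37.6%) between 25 and 50, against 26.3%, and 128 (15.5%) at 50 or above, against 49.9%. Under daunorubicin 621 members (75.3%) reached a mean percentile of 50, against 50.2% of all shared regions, and 275 (33.3%) reached 75, against 22.2%. The 74 members (8.97%) that reached 90 were near the 8.25% of all shared regions. The median rise was 32.3 points, with quartiles of 25.8 and 42.8 and a highest value of 93.9.

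**Figure D1:**
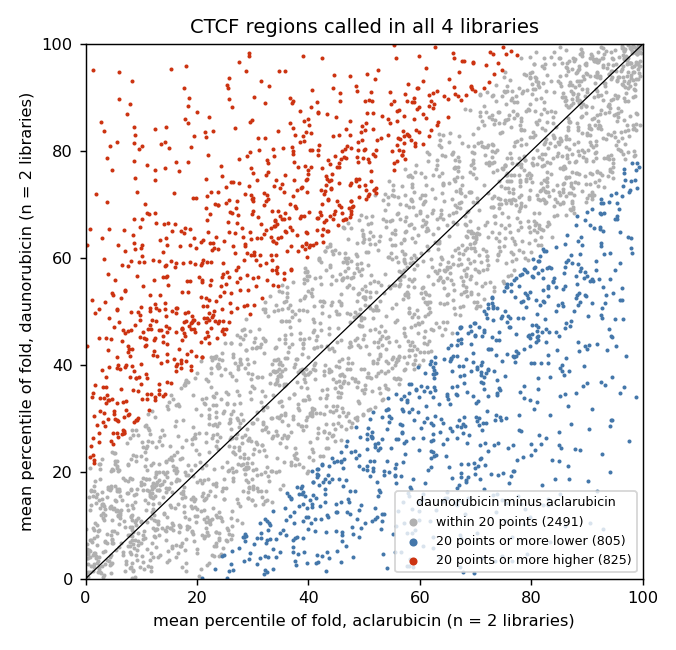
Mean percentile of fold under aclarubicin (x axis) and daunorubicin (y axis), each the mean of 2 libraries, for the 4121 regions called in all 4 libraries; each point is a region and the line marks equal percentiles. The 825 members (red) fill the area at least 20 points above the line, and the 805 regions of the other direction (blue) fill the area below it.

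The authors' fold rose less than the rank. The median fold of the members was 8.03 and 8.04 under aclarubicin against 9.11 and 10.2 under daunorubicin. Over all 4121 shared regions it was 10.3 and 10.2 under aclarubicin against 7.94 and 8.80 under daunorubicin. The members therefore had lower folds than the typical shared region in the aclarubicin lists and higher folds in the daunorubicin lists. Both daunorubicin percentiles lay above both aclarubicin percentiles in 783 members (94.9%), against 31.7% of all shared regions. In the other 42 members the percentiles of the drugs overlapped in at least 1 pair of libraries. By fold itself, both daunorubicin values exceeded both aclarubicin values in 433 members (52.5%), against 13.2% of all shared regions. The rule used these same folds, so nothing is read from the excess over either background.

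Differences of 20 points also occurred between replicates of one drug, though less often. Aclarubicin replicate 2 exceeded replicate 1 by at least 20 points in 259 shared regions (6.28%), and the reverse held in 223 (5.41%). Between the daunorubicin replicates the counts were 529 (12.8%) and 539 (13.1%). In the same-numbered libraries of the 2 drugs, daunorubicin exceeded aclarubicin by at least 20 points in 890 regions (21.6%) for replicate 1 and 896 regions (21.7%) for replicate 2. Of the members, 503 (61.0%, against 12.2% of all shared regions) met the limit in both of these pairs, and the other 322 (39.0%, against 18.9%) in 1 of them. In 805 members (97.6%, against 36.2%) the difference was above 0 in both. The rule largely fixes these counts, since it used the mean of the same pairs.

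The 890 and 896 regions, which overlap the members but are not the same set, show how far a choice on 1 library per drug carried over to the other. When the 890 regions were chosen on the replicate 1 libraries alone, their median difference was 35.2 points there. In the replicate 2 libraries it was 24.8 points, with quartiles of 6.14 and 40.5. Of these regions, 747 (83.9%) lay above 0 in the replicate 2 libraries, against 50.4% of all shared regions, and 503 (56.5%) lay at 20 points or more, against 21.7%. In the opposite direction, the 896 regions chosen on replicate 2 had a median of 33.6 points there and 24.3 points in replicate 1, with quartiles of 7.68 and 41.5. In replicate 1, 764 of them (85.3%) lay above 0, against 49.4% of all shared regions, and 503 (56.1%) reached 20 points, against 21.6%. Both medians were smaller than where the regions were chosen. Regions chosen the same way in the other direction carried over alike, with 773 of 938 (82.4%) and 764 of 905 (84.4%) on the same side of 0 in the other pair and median falls of 22.6 and 23.2 points. All of these regions needed a peak in all 4 libraries, and the member rule used the same 4 libraries, so these values describe the replicates and are no separate support for the members.

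**Figure D2:**
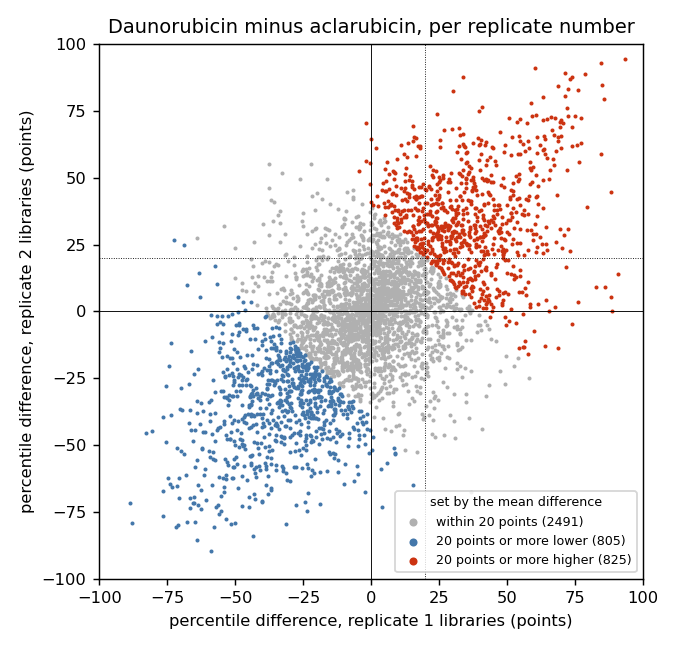
Percentile difference, daunorubicin minus aclarubicin, in the replicate 1 libraries (x axis) and the replicate 2 libraries (y axis), in points; each point is 1 of the 4121 shared regions and dotted lines mark 20 points. The members (red) lie mostly in the upper right, with 503 of 825 beyond 20 points on both axes and a fringe beyond it on 1 axis only.

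The 8 members with the largest differences, among those where both daunorubicin percentiles exceeded both aclarubicin percentiles, went from the low end of the aclarubicin order to the high end of the daunorubicin order. First was chr17:38169900-38170375, with percentiles of 1.82 and 0.73 under aclarubicin against 95.3 and 95.1 under daunorubicin. Its folds were 4.16 and 3.69 with aclarubicin against 13.1 and 14.4 with daunorubicin, and the authors' −log10 q went from 12.4 and 9.70 to 96.97 and 106. The groups were far apart, and the replicates of each drug lay close together.

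The number of fragments over a peak's summit, and the background, can be recovered from the fold and p-value of each peak. This splits the fold into fragments and background. No control is named in the sources used here, so whether the background is free of the peak's own reads is not known. At the chromosome 17 region the summit held 44 and 41 fragments under aclarubicin against 132 and 136 under daunorubicin. The exact 95% Poisson intervals, which cover counting error only, were 32.0 to 59.1 and 29.4 to 55.6 for aclarubicin and 110 to 157 and 114 to 161 for daunorubicin. The background under the peak was 9.82 and 10.4 fragments under aclarubicin against 9.14 and 8.50 under daunorubicin. Scaled by the relative depth given above, daunorubicin had 3.57 times the aclarubicin fragments over 0.99 times the background. Here the signal itself was higher under daunorubicin, in both libraries.

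The next region, chr19:33467056-33467495, had folds of 5.65 and 5.05 with aclarubicin against 12.1 and 15.7 with daunorubicin. Its fragments were 30 and 31 under aclarubicin against 62 and 79 under daunorubicin. The third, chr20:48701935-48702408, had folds of 5.83 and 5.74 against 12.5 and 13.5. Both regions repeated the pattern of the first, with intervals of the fragments that did not overlap between the drugs (the highest aclarubicin bounds were 44.0 and 70.5, the lowest daunorubicin bounds 47.5 and 85.9).

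The fourth, chr15:91429203-91429715, had folds of 5.58 and 5.11 for aclarubicin and 10.97 and 13.8 for daunorubicin. The fifth, chr5:176736630-176737116, had folds of 4.87 and 4.02 against 11.7 and 11.6. The sixth, chr11:65361209-65361739, had folds of 6.22 and 5.16 against 10.9 and 13.5. In all of these the lower daunorubicin value was well above the higher aclarubicin value, and the depth-scaled fragment ratios were 2.06, 2.56 and 1.89. The seventh, chr3:195577694-195578164, had folds of 4.76 and 4.61 against 9.69 and 13.4, with a wider gap between the daunorubicin replicates than between the aclarubicin ones.

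The eighth, chr14:106986360-106987104, differed from the others in its background. Its fragments were 21 and 15 under aclarubicin against 61 and 62 under daunorubicin, a scaled ratio of 3.93, the highest of all 825 members. The background also rose, from 1.81 and 1.86 to 3.49 and 3.52 fragments, a scaled ratio of 2.16, again the highest of the members. Both aclarubicin values lay at or near the lowest background of their lists, 1.73 and 1.86, so the ratio is measured from that lower limit. The peak was 420 and 323 bp wide under aclarubicin and 723 and 735 bp under daunorubicin, and the region lay 0.36 Mb from the chromosome end. At the other 7 regions the background ratio lay between 0.86 and 1.10.

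**Figure D3:**
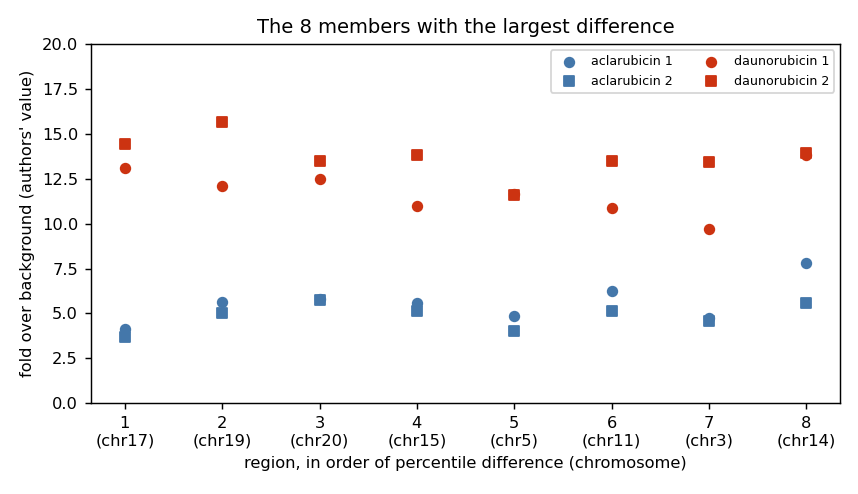
Fold over background (authors' value, y axis) in each of the 4 libraries for the 8 members with the largest percentile difference, in order of that difference (x axis, with the chromosome in brackets); each point is a library. At all 8 regions both daunorubicin values (red, 9.69 to 15.7) lie above both aclarubicin values (blue, 3.69 to 7.83).

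These 8 were extreme. Across all members, the depth-scaled fragments at the summit had medians of 50.0 and 51.9 under aclarubicin against 48.1 and 61.4 under daunorubicin. The aclarubicin values lay between the daunorubicin ones, so in fragments the drugs overlapped. In the regions that moved by less than 20 points the medians fell from 79.0 and 79.7 to 43.1 and 55.3, and in the regions of the other direction from 99.0 and 97.9 to 33.1 and 40.6. The median ratio of daunorubicin to aclarubicin fragments was 1.04 in the members, 0.61 in the regions within 20 points, 0.39 in the other direction and 0.62 over all shared regions. Per replicate number, the members' median was 0.95 in the replicate 1 libraries and 1.14 in the replicate 2 libraries. These lie on either side of 1, and without the depth scaling the members' median was 0.92. No change in either direction is therefore read for the median member. Most shared regions had fewer scaled fragments under daunorubicin. The ratios come from the contrast that chose the members and are a description. They also rest on the relative depth, whose formula assumes how the peak caller computed its values.

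After depth scaling, the members divided about evenly around a fragment ratio of 1. That split moves with the scaling and the library. Their median ratio was 0.92 unscaled, 0.94 without daunorubicin replicate 2 and 1.16 without daunorubicin replicate 1. The fragment ratio was above 1 in 449 members (54.4%), against 14.5% of all shared regions. It was at least 1.5 in 122 members (14.8%, against 3.18%) and at least 2 in 35 members (4.24%, against 0.874%). Of the 36 shared regions with a ratio of at least 2, 35 were members. Both daunorubicin libraries had more scaled fragments than both aclarubicin libraries in 257 members (31.2%), against 7.11% of all shared regions. The other 376 members had a ratio of at most 1, down to 0.45, and gained rank with fewer fragments than under aclarubicin. Fragments enter the fold that chose the members, so nothing is read from the excesses over all shared regions.

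The local background was lower under daunorubicin at most regions, and less so at the members. Its scaled median at the members was 6.0 and 6.19 fragments under aclarubicin against 4.46 and 4.97 under daunorubicin, with no overlap between the drugs. The median background ratio was 0.80 in the members, 0.67 in the regions within 20 points and 0.61 in the other direction. The median fragment ratios of these sets, 1.04, 0.61 and 0.39, stood in the same order. Whether the background is free of the peak's own reads is not known, so the 2 ratios may not be separate. The background ratio was below 1 in 626 members (75.9%), against 87.8% of all shared regions and 94.8% of those of the other direction. Thus, at the medians, the members' higher fold came with a depth-scaled fragment ratio near 1 and a lower background. Background within 2% of the lowest level of a list was more frequent at members in the aclarubicin libraries, with 51 and 45 members (6.18% and 5.45%, against 2.7% and 2.5% of all shared regions), than in the daunorubicin libraries, with 14 and 11 members (1.70% and 1.33%, against 1.99% and 1.33% of all shared regions).

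**Figure D4:**
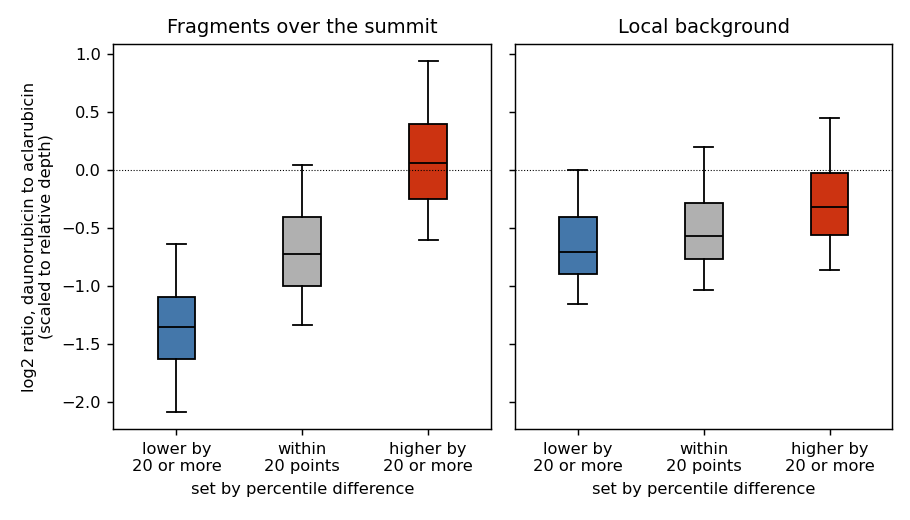
Ratio of daunorubicin to aclarubicin on a log2 scale (y axis), scaled to relative depth, for fragments over the summit (left) and local background (right) in the 3 sets of shared regions (x axis); boxes span the quartiles, lines are medians and whiskers run from the 5th to the 95th percentile. The members' median lies near 0 for fragments, with a ratio of 1.04, and below 0 for background, with a ratio of 0.80, and both are the highest of the 3 sets.

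The size of the rank gain went with the fragment ratio among the members. Differences of 20 to 30 points were found in 341 members, of 30 to 40 in 236, of 40 to 60 in 187 and of 60 or more in 61. The median fragment ratio of these classes was 0.92, 1.02, 1.24 and 1.76, in that order, and the share of members with a ratio above 1 was 35.8%, 53.8%, 75.9% and 95.1%. The median background ratio also rose, from 0.77 and 0.79 to 0.82 and 0.89. The members with the largest gains were thus mostly sites with more CTCF fragments under daunorubicin, while those of the first class mostly had fewer. In the class of 60 points or more, the median −log10 q was 20.97 and 21.05 under aclarubicin against 51.1 and 54.4 under daunorubicin. In the class of 20 to 30 points it was 30.1 and 31.9 under aclarubicin against 25.1 and 28.9 under daunorubicin. Rank and fragments share the same reads, so this order is a description of the class limits.

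Peaks at the members were slightly narrower under daunorubicin. The median width of the members was 379 and 391 bp under aclarubicin against 350 and 373 bp under daunorubicin, so that daunorubicin minus aclarubicin was -23.5 bp, with a pooled replicate SD of 12.97 bp. Without aclarubicin replicate 2 the difference was -11.75 bp, and without daunorubicin replicate 2 it was -35.0 bp. In the regions within 20 points the difference was -91.0 bp, and in the other direction -146.5 bp, with pooled SDs of 13.7 and 10.1 bp. In the members with a gain of 60 points or more the direction was the opposite, with 380 and 362 bp under aclarubicin against 404 and 411 bp under daunorubicin. Summits differed little between the drugs. The distance between summits of different drugs, averaged over the 4 pairs of libraries, had a median of 18.5 bp in the members and 18.5 bp over all shared regions. Between replicates the members' median was 17 bp for aclarubicin and 13 bp for daunorubicin. A mean distance above 50 bp between drugs was found in 63 members (7.64%), against 6.79% of all shared regions. At most 3 members had more than 1 peak in any library.

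The members that ranked highest under daunorubicin were of several kinds. The first, chrX:108297404-108297823, had folds of 6.23 and 25.7 with aclarubicin against 21.8 and 24.3 with daunorubicin. Aclarubicin replicate 1 alone was low, with 16 fragments against 83 in replicate 2, so this member entered through 1 library and its drugs overlapped. The second, chr13:61047732-61048136, had folds of 11.7 and 11.2 against 18.5 and 22.1. Its fragments went from 31 and 31 to 72 and 100, and its nearest called region lay 2848410 bp away, the farthest of all members. The third, chr19:56164878-56165480, had folds of 12.6 and 12.9 against 18.8 and 19.2, on 227 and 262 fragments against 286 and 252. The fourth, chr16:89307098-89307525, had folds of 12.7 and 13.2 against 15.2 and 18.3, with a fragment ratio of 0.98 over a background ratio of 0.73. Their fragments thus ran from a clear rise to none.

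The values just inside and just outside the limit of 20 points were close. The last 3 inside had differences of 20.07, 20.01 and 20.001 points and the first 3 outside 19.98, 19.89 and 19.89 points. The last member, chr9:35790266-35790668, had folds of 7.55 and 7.01 against 7.24 and 8.05, and the first region outside, chr15:40613015-40613589, had 6.76 and 8.14 against 7.48 and 8.03. In both the folds of the drugs overlapped. They did not overlap in another of the members just inside, on chromosome 1, with 4.49 and 3.46 against 6.34 and 6.49, nor in another of the regions just outside, on chromosome 17, with 3.65 and 3.76 against 4.83 and 7.80. The members whose daunorubicin replicates differed most were chr18:45275527-45276004, with daunorubicin percentiles of 95.1 and 15.8, and chr7:97557634-97558056, with 85.6 and 12.4. In both, replicate 2 lay below both aclarubicin percentiles, so they are members through replicate 1 alone.

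Position in the genome was not used by the rule. The members occurred on chromosomes 1 to 22 and X. Chromosome 1 held 100, chromosome 19 held 75 and chromosome 2 held 52. As a share of the shared regions of a chromosome, members ranged from 14.9% on chromosome 20 (18 of 121, 95% Wilson interval 9.62% to 22.3%) to 31.5% on chromosome 10 (47 of 149, 24.6% to 39.4%). Chromosome 10 was the only one of the 23 whose interval left out the overall 20.02%. The intervals were not adjusted for looking at 23 chromosomes, and the cause of the higher share was not tested. In the single pairs of libraries, 29.5% (replicate 1) and 30.2% (replicate 2) of chromosome 10 regions reached 20 points, against 21.6% and 21.7% of all shared regions. The rule used the mean of these pairs, so they are no separate support for a higher share. Yet the median difference over all shared regions of chromosome 10 was -0.24 points, and 29 of its regions (19.5%) moved 20 points the other way, the same share as in the whole genome. Chromosome 9 followed with 43 of 168 (25.6%, 19.6% to 32.7%) and a median difference of 4.43 points. The share of regions of the other direction was lowest on chromosome 13, with 2 of 27 (7.41%), followed by chromosome 22 with 13 (10.1%) and chromosomes 9, 19 and 15 with 14.3%, 14.4% and 14.5%. Wilson intervals treat regions as independent, which neighbours need not be, and no test over regions was made.

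**Figure D5:**
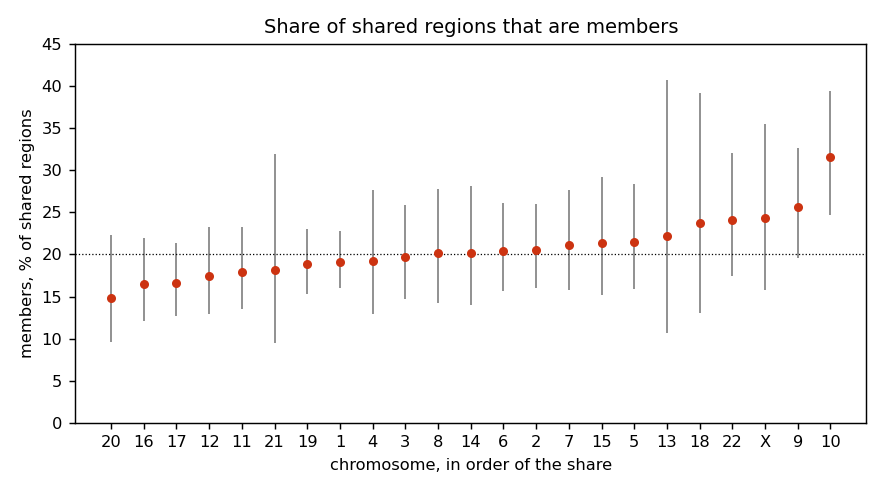
Members as a percentage of the shared regions of each chromosome (y axis), with chromosomes ordered by that share (x axis); bars are 95% Wilson intervals and the dotted line is the overall 20.02%. The share runs from 14.9% on chromosome 20 to 31.5% on chromosome 10, and the intervals of the other 22 chromosomes include the line.

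Members did not lie next to one another more often than shared regions at large. The nearest other shared region was itself a member for 155 members (18.8%, 16.3% to 21.6%), against 19.8% of all shared regions. When only neighbours within 100 kb counted, the share was 15.6% (68 of 435, 12.5% to 19.3%), against 19.0%. Along the chromosomes, 568 members had no member as the shared region before or after them, and the other members formed 113 runs. The longest run comprised 6 consecutive shared regions on chromosome 10, from 75645812 to 80955583, a span of 5310 kb. Its last region, chr10:80955158-80955583, gained most, with folds of 5.47 and 6.21 with aclarubicin against 10.1 and 11.9 with daunorubicin. There the fragments were 133 and 148 against 131 and 173, and the background was 23.5 and 23.0 fragments against 12.1 and 13.6. The other 5 regions of the run gained 25.5 to 31.5 points, with fragment ratios from 0.72 to 1.36. The first of the runs of 5 lay on chromosome 2, from 19549855 to 21266172, where the gains were 24.6 to 48.4 points and 1 of the 5 regions had a fragment ratio above 1. Neither run was a block of uniformly raised signal.

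The surroundings of the members were those of shared regions in general. The median distance to the nearest called region of any kind was 23908 bp for members and 22648 bp for all shared regions. Another called region lay within 10 kb of 242 members (29.3%, 26.3% to 32.5%), against 27.6% of all shared regions, 29.7% of those within 20 points and 19.6% (17.0% to 22.5%) of those of the other direction. By class of gain this share was 26.1% at 20 to 30 points, 31.8% at 30 to 40 and 29.9% at 40 to 60. Among the members with a gain of 60 points or more it was 22 of 61 (36.1%). No interval was computed for these classes, and the last is small. A region called only under daunorubicin, in both replicates, lay within 100 kb of 67 members (8.12%, 6.45% to 10.2%), against 9.03% of all shared regions. A region called only under aclarubicin lay within 100 kb of 401 members (48.6%, 45.2% to 52.0%), against 46.4%. Regions of higher rank under daunorubicin were thus no nearer to daunorubicin-only regions than other shared regions were, within these intervals. Of the members, 127 (15.4%, 13.1% to 18.02%) lay within 5 Mb of a chromosome end, against 13.6% of all shared regions and 10.9% (8.96% to 13.3%) of those of the other direction. With members chosen by −log10 p in place of fold, these shares were 25.6% within 10 kb and 12.3% within 5 Mb, both below those of all shared regions rather than above.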

How the data were processed

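CTCF ChIP-seq peak lists of 4 K562 libraries, 2 per drug, were used, with groups and replicate numbers from the labels. The authors called peaks per library and deposited 1 narrowPeak list each, in which every peak has a fold ratio over background, a −log10 p and −log10 q of the authors' peak calling, a score made from the −log10 q, and a summit offset. Per the submitters' processing notes, Bowtie2, Picard and bedtools and the builds GRCh37 and hg19 were used; the peak caller, its threshold and any control are not given in the sources used here. No peak ran past a GRCh37 chromosome end, with lengths entered by hand.

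The merging differed from bedtools 2.31.1 for 0 regions. Ties took average ranks. Fragments k and background λ were solved from fold = (k + 1)/(λ + 1) and a Poisson p. This is an assumed formula; the solved k was whole, to 0.02, in 100% of peaks, and the solver was tested on simulated data. Relative depth is a list's lowest λ over its shortest peak. Wilson and Poisson intervals are at 95%. An exact test of 2 against 2 libraries cannot go below p = 0.333, and the rule used the contrast, so none is given. The labels call the replicates biological. The members, lists and rules were chosen with earlier results of these data known. Named regions are the 8 with the largest difference, the 4 highest under daunorubicin, the 3 on each side of the limit, the 2 longest runs and the 2 with the largest gap between daunorubicin replicates. Motif and promoter analyses were not run for want of a GRCh37 genome and annotation. Python 3.11.15, numpy 2.4.6, pandas 2.3.3, scipy 1.17.1, statsmodels 0.14.6 and matplotlib 3.10.9 were used.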

Additional observations from a re-analysis of the deposited data

How the results depend on the processing

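The number of members, 825, depended on the limit: it was 1291 at 10 points and 484 at 30 points. It was 317 with percentiles among all peaks of a library. With the replicate number as a block, so that both same-numbered pairs had to reach 20 points, it was 503 (12.2% of the shared regions). The replicate differences of the drugs correlated at -0.05 across regions. The labels do not say whether same-numbered libraries were processed together, and a shared batch was not tested. Ranking by −log10 p gave 790 members (19.2% of the shared regions), 618 of them among the 825. Ranking by fragments gave 637, 467 of them among the 825. With a library left out the number was 868 to 1032. The shared regions were then also more, 4255 to 5021, and members were 20.3% to 20.8% of them, against 20.02% with all 4 libraries.

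The gain in replicate 2 of regions chosen on replicate 1 was 18.5 points at a limit of 10, 28.9 at 30, 25.4 by −log10 p and 24.1 with −log10 q of at least 10. The reverse choice gave 17.0, 30.0, 24.7 and 23.5 points. The share of members whose nearest shared region is a member was 31.4% at 10 points and 8.47% at 30 points, where members were 31.3% and 11.7% of shared regions, and 15.6% within 100 kb. By −log10 p, 12.3% of members lay within 5 Mb of an end and 25.6% had a called region within 10 kb; the cause was not tested. By construction the shares fell to 7.39% within 2 Mb and 15.0% within 5 kb. With a library left out, the members' fragment ratio was 0.94 to 1.16, on either side of 1, and the background ratio 0.74 to 0.82. Without the depth scaling the fragment ratio was 0.92, below 1. The motif and promoter results and their alternatives were not run. A region without a call in all 4 libraries has no value here.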
